A study of Solanum lycopersicum with 120 samples.

Results

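The cotyledons of white-light-grown WT tomato seedlings were compared with the hypocotyl, using the 9 libraries of each organ collected at 3, 6 and 24 h. These 18 libraries, of 120 in the series, were chosen by organ, genotype and light alone, so that no measured value entered the choice. The seedlings were of the cultivar M82, 12 days old, raised on soil in long days of white light at a constant 24 °C and about 200 µmol m−2 s−1 (24WL) and left in it, and the times count from 2 h after lights on. At each time every organ had 3 biological replicates, each pooled from 4 seedlings. Both groups carried the *sp* mutant allele of *SELF PRUNING*, part of the determinate M82 background used, and no *slpif* mutation or transgene. The methods give 4 seedlings per replicate for the organs together, but not whether the same number in cotyledons and hypocotyl marks the same seedlings. For side comparisons, the same pair of organs was taken from WT under white light with added far-red light (24FR, R/FR of 0.6) and, at 6 h in 24WL, from *slpif8a* and *slpifq*, CRISPR mutants of *SlPIF8a* alone and of *SlPIF4*, *SlPIF7a*, *SlPIF7b* and *SlPIF8a* together. The first leaf and the epicotyl, the next blade and stem segment above, were taken from the WT seedlings in 24WL.

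Cotyledons are the seed leaves. After emergence they turn into photosynthetic blades, in which most cells are mesophyll filled with chloroplasts, and they export sugar to the rest of the seedling. The hypocotyl is the stem below them. It carries a vascular cylinder with xylem, phloem and cambium, grows mainly by elongation of its cells, and is the organ that lengthens when a seedling is shaded, under the control of phytochromes and the phytochrome-interacting factors (PIFs), transcription factors that phytochromes inactivate in light.

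Reads on genes numbered about 15905800 to 24643900 in the cotyledon libraries and 21910300 to 28908700 in the hypocotyl libraries. The 10 most abundant genes took 7.68 to 9.68% of these reads in cotyledons and 3.99 to 6.15% in the hypocotyl, and the scaling factors that balance such differences (TMM) were 0.729 to 0.936 in cotyledons and 1.25 to 1.28 in the hypocotyl. The scale affected the split of the calls. With library totals alone the median log2 fold change of all tested genes was −0.69, against −0.02 with TMM, and 1962 genes were higher and 5938 lower in cotyledons in place of the 3194 and 2544 given next. Directions are therefore relative to the typical gene. Of the cotyledon libraries, replicate 1 of 6 h was the shallowest and had the highest TMM factor, and without it 3097 genes were higher and 2740 lower. The cotyledon library of 3 h replicate 1 held traces of several stem transcripts, described with those genes. In RNA of whole organs, fewer cells of a type and less RNA per cell cannot be told apart.

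Of 34075 genes listed, 16381 passed the filter on low counts and 5738, 35.0% of those tested, were called, that is, they differed by more than 1 on the log2 scale with an adjusted p below 0.05. In the cotyledons 3194 (19.5%) were higher and 2544 (15.5%) lower. Of the genes higher in cotyledons 649 differed over 8-fold and 191 over 32-fold, and of the genes lower there 404 and 121. In 7331 genes (44.8%) no cotyledon library overlapped with a hypocotyl library. All fold changes are log2 of cotyledons over hypocotyl, and adjusted p are from edgeR's quasi-likelihood test. The SE after ± was derived from that test, as the size of the fold change over the square root of F. It understates the uncertainty where 1 organ had almost no reads, since leaving out 1 library moved some such fold changes by more. Levels are counts scaled to library size by TMM (normalized CPM), given as the lowest, median and highest of the 9 libraries of an organ. The descriptions used to name genes cover 2678 of the tested genes, mostly genes of chromosome 1 and genes that respond to far-red light. Of these 672 were higher and 686 lower in cotyledons, so that 50.7% were called. Lists drawn from them start above the share of all genes, and their counts are to be read against this background.

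**Figure D1:**
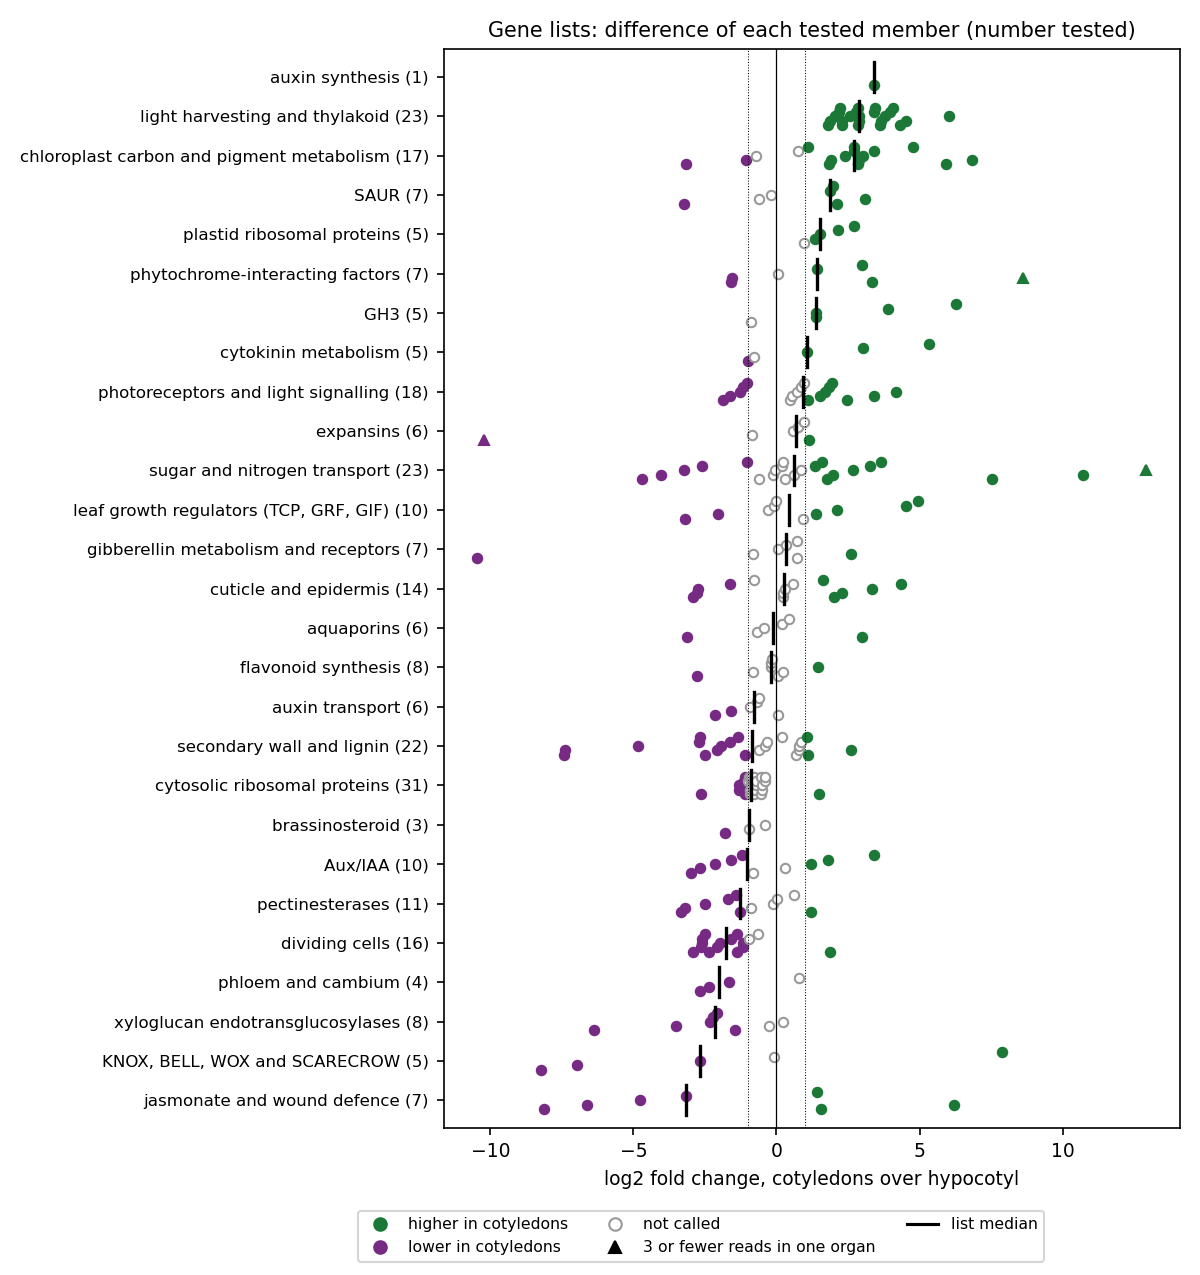
Each point is a tested member of one of 27 gene lists, placed on the x axis by its log2 fold change of cotyledons over hypocotyl, with filled points for genes called, a black bar at the list median and dotted lines at −1 and 1. The 23 light-harvesting genes all lie to the right and 13 of 16 genes of dividing cells to the left as called. Triangles are genes with 3 or fewer reads in 1 organ, whose place depends on the prior count of the fit. With library totals alone the points move to the left by the shift of all genes, and the cuticle list then has more members lower than higher.

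The photosynthetic apparatus differed as a whole. All 23 listed genes of light harvesting and the thylakoid were tested and were higher in cotyledons, with a median log2 fold change of 2.88, and this held under library totals too. Their summed level was 10886, 27355 and 36697 CPM in cotyledons, against 1931, 2941 and 3536 CPM in the hypocotyl. The lowest sum in cotyledons was thus above the highest in the hypocotyl, and the library with the lowest sum was from 24 h in both organs.

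Chlorophyll a-b binding proteins hold the antenna chlorophylls of the photosystems. All 14 listed were higher, with a median of 2.88. *Solyc02g070990* stood at 288, 1461 and 2238 CPM in cotyledons, against 4.54, 24.0 and 31.2 CPM in the hypocotyl, a log2 fold change of 6.04 ± 0.13 (adjusted p = 7.94e-17). The organs did not overlap. This gene lies in a cluster of near-identical copies on chromosome 2, so the split of reads among the copies is uncertain. The most abundant member, *Solyc03g115900*, had 1943, 4766 and 6154 CPM in cotyledons, against 569.7, 648 and 824 CPM in the hypocotyl (2.56 ± 0.16, adjusted p = 8.87e-11). Of the NDH complex, which cycles electrons around photosystem I, the gene of subcomplex B 3 (*Solyc08g083360*) had 311, 541 and 786 CPM in cotyledons, against 7.84, 25.4 and 47.6 CPM in the hypocotyl (4.54 ± 0.15, adjusted p = 7.21e-15). Subcomplex L 2 (*Solyc05g007780*) differed by 4.33 ± 0.12. Neither gene overlapped between the organs.

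Genes of carbon fixation and pigment metabolism in the chloroplast followed, with 13 of 17 higher, 2 lower and a median of 2.69. Chloroplast carbonic anhydrase (*Solyc02g086820*), which interconverts CO2 and bicarbonate, had 3904, 8502 and 11119.6 CPM in cotyledons, against 22.6, 54.3 and 119.7 CPM in the hypocotyl (6.84 ± 0.23, adjusted p = 1.10e-14). Every cotyledon library of 6 h was under those of 3 and 24 h. Glyceraldehyde-3-phosphate dehydrogenase (*Solyc12g094640*), an enzyme of the Calvin cycle, had 922, 2846 and 4793 CPM in cotyledons, against 9.61, 50.5 and 90.6 CPM in the hypocotyl (5.93 ± 0.15, adjusted p = 4.12e-16). Fructose-1,6-bisphosphatase (*Solyc10g086720*) of the same cycle was 4.79 ± 0.26 higher. Not every chloroplast protein followed. A ferredoxin (*Solyc11g006910*), from a family of electron carriers with leaf and non-leaf forms, had 0.0628, 0.445 and 0.855 CPM in cotyledons, against 1.13, 4.41 and 6.17 CPM in the hypocotyl (−3.15 ± 0.36, adjusted p = 2.17e-07).

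The most abundant described genes among those higher in cotyledons belong to the same metabolism. Besides carbonic anhydrase and *Solyc03g115900* they were a fructose-bisphosphate aldolase, chloroplast glutamine synthetase and serine-glyoxylate aminotransferase. Chloroplast glutamine synthetase (*Solyc01g080280*), which reassimilates ammonium freed by photorespiration, had 2404, 5203 and 7577 CPM in cotyledons, against 468, 556 and 671 CPM in the hypocotyl (3.04 ± 0.14, adjusted p = 1.26e-12). Serine-glyoxylate aminotransferase (*Solyc12g099930*), a peroxisomal enzyme of photorespiration, had 1818, 4512 and 4950.4 CPM in cotyledons, against 17.4, 133 and 577 CPM in the hypocotyl (4.95 ± 0.40, adjusted p = 2.03e-09). Its difference ran with time, at 5.08, 6.47 and 3.27 for 3, 6 and 24 h. The aldolase (*Solyc01g110360*) was 3.41 ± 0.11 higher, yet its libraries overlapped between the organs because its level changed with time in both.

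The machinery that makes plastid proteins was higher as well. Of the 5 ribosomal proteins of the plastid 4 were higher and none lower, with a median of 1.52, and 2 of them kept the call under library totals. The 30S protein S1 (*Solyc01g057830*) had 484, 683 and 924 CPM in cotyledons, against 85.4, 105 and 127 CPM in the hypocotyl (2.7 ± 0.07, adjusted p = 7.09e-16). The sigma factor sigD (*Solyc01g087690*) is a subunit that guides the plastid RNA polymerase to its promoters. It was among the 12 largest described differences without overlap and with a mean of at least 20 CPM in cotyledons. Its level was 23.1, 48.5 and 62.6 CPM in cotyledons, against 0.0274, 0.123 and 0.310 CPM in the hypocotyl (8.22 ± 0.15, adjusted p = 2.63e-17).

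Most ribosomal proteins of the cytosol were not called. Of 31 tested 1 was higher, 8 lower and 22 neither, with a median of −0.88, while 686 of the 2678 described genes were lower, so that the count of members lower is near that background. Under library totals 30 were lower. L24 (*Solyc10g083740*) had 25.9, 35.3 and 44.0 CPM in cotyledons, against 78.9, 86.4 and 105 CPM in the hypocotyl (−1.32 ± 0.09, adjusted p = 4.23e-10). The member that was higher was a 60S L34 gene (*Solyc01g102310*), with 193, 269.7 and 382 CPM in cotyledons, against 83.6, 96.9 and 119 CPM in the hypocotyl (1.5 ± 0.08, adjusted p = 6.31e-12). The counts differed with time, since 14 members were lower at 3 h, 18 at 6 h and 2 at 24 h. At these times 17.1%, 15.2% and 17.2% of all genes were lower. The share of described genes, which is above that of all genes over the 18 libraries, was not counted by time.

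Transporters of sugar and nitrogen were split. Of 23 tested 10 were higher and 5 lower, beside 672 and 686 of the 2678 described genes. Under library totals 8 were higher and 6 lower. SWEET proteins let sugars leave cells and load the phloem of leaves. *Solyc03g097610* had 107, 274 and 325 CPM in cotyledons, against 0, 1.66 and 3.59 CPM in the hypocotyl (7.54 ± 0.40, adjusted p = 5.51e-12). *Solyc03g097580* had 3.03, 37.2 and 140.1 CPM in cotyledons, against 0, 0 and 0.125 CPM in the hypocotyl (10.72 ± 0.17, adjusted p = 1.51e-17). For both, every cotyledon library was above every hypocotyl library. The NRT1/PTR family moves nitrate, peptides and hormones. Of its 16 tested members 4 were higher and 5 lower, a share called near the 50.7% of described genes. *NRT1/PTR FAMILY 7.3* (*Solyc01g080870*) had 10571 reads in the 9 cotyledon libraries together, against 1 in the hypocotyl, a ratio of 18938.3 after scaling (95% exact interval of the counts 3398 to 748094, counting error only). The opposite case was *NRT1/PTR FAMILY 2.7* (*Solyc06g075480*), with 0, 0.611 and 1.32 CPM in cotyledons, against 12.1, 14.3 and 20.1 CPM in the hypocotyl (−4.69 ± 0.30, adjusted p = 1.04e-10).

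**Figure D2:**
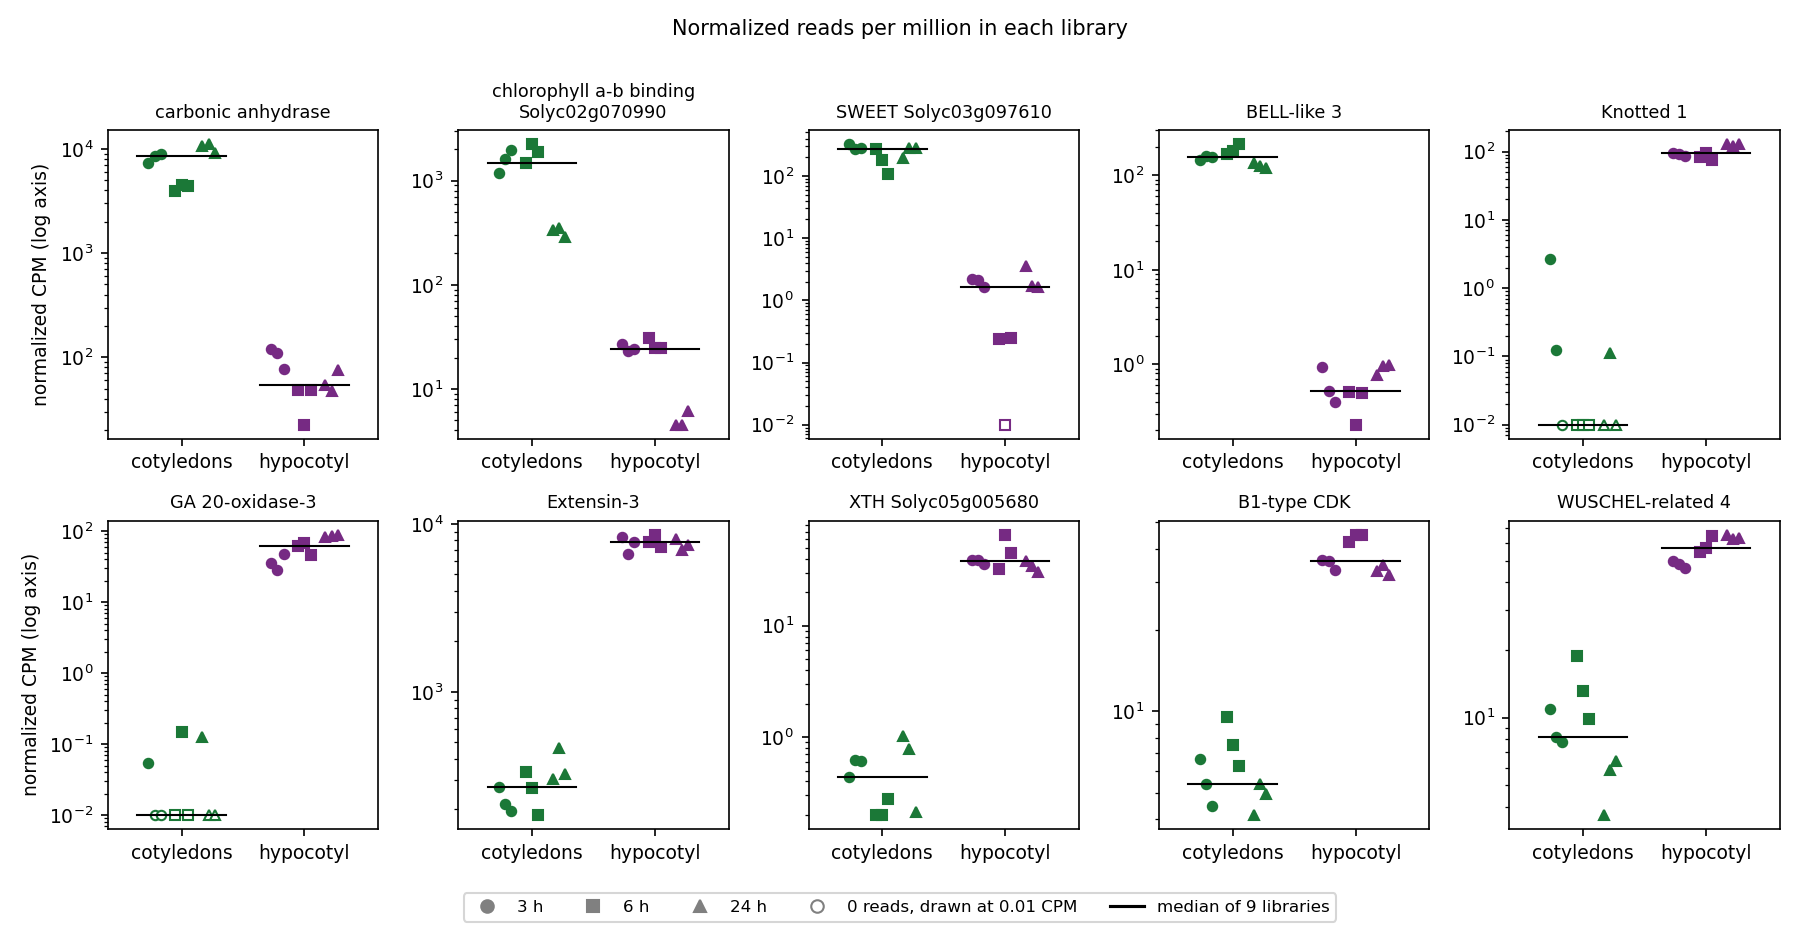
Normalized CPM on log axes of 10 genes in each of the 18 libraries, with cotyledons left and hypocotyl right, symbols for the time, open symbols for 0 reads and a bar at the median of 9 libraries. No library of one organ reaches the other in any panel, and cotyledon replicate 1 of 3 h is alone in holding 2.7 CPM of *Knotted 1*.

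Members of the cell wall lists differed widely among themselves. Of 22 tested genes of the secondary wall and lignin 11 were lower and 3 higher, beside 686 and 672 of the 2678 described genes. Their median was −0.85, and under library totals 13 were lower and 1 higher. The summed level of all 27 listed genes was 2025, 3382 and 3958 CPM in cotyledons, against 3126, 3433 and 3579 CPM in the hypocotyl, so that the organs overlapped. Laccases, which couple lignin monomers in the wall, were the most unequal members, with 4 of 6 lower and a median of −3.76. *Solyc09g010990* had 0, 0 and 0.612 CPM in cotyledons, against 16.1, 20.03 and 25.1 CPM in the hypocotyl (−7.39 ± 0.34, adjusted p = 8.94e-13, and −8.36 without cotyledon replicate 2 of 24 h, the library with the most reads of it). *Solyc05g052340* had 0, 0 and 0.267 CPM in cotyledons, against 8.63, 12.3 and 16.8 CPM in the hypocotyl (−7.42 ± 0.34, and −8.02 without cotyledon replicate 3 of 24 h). Another laccase, *Solyc09g011970*, differed by −4.83 ± 0.28. Phenylalanine ammonia-lyase (*Solyc09g007910*), the entry enzyme of all phenylpropanoids and not of lignin alone, was higher, with 27.3, 185 and 668 CPM in cotyledons, against 7.11, 27.9 and 69.6 CPM in the hypocotyl (2.60 ± 0.31, adjusted p = 4.55e-07), with libraries that overlapped.

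Cellulose synthases make the glucan chains of the wall. Of 5 tested 1 was higher and 2 lower, with a median of 0.67, where 50.7% of described genes were called. *Solyc01g087210* was among the 5 most abundant described genes lower in cotyledons, with 309.7, 384 and 474 CPM, against 763, 864 and 939 CPM in the hypocotyl (−1.09 ± 0.07, adjusted p = 3.93e-11). Fasciclin-like arabinogalactan proteins, surface glycoproteins found in stems, were lower for 3 of 4, such as *Solyc01g091530* with 82.7, 131 and 161 CPM in cotyledons, against 429.7, 546 and 588 CPM in the hypocotyl (−2.06 ± 0.07, adjusted p = 2.91e-14). The most abundant gene of all those lower in cotyledons and described was that of Extensin-3 (*Solyc09g098510*), a structural wall glycoprotein. It had 185, 273 and 461 CPM in cotyledons, against 6641, 7748 and 8634 CPM in the hypocotyl (−4.78 ± 0.16, adjusted p = 8.19e-15).

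Xyloglucan endotransglucosylases (XTHs) cut and rejoin the xyloglucan that ties cellulose together, and act in growing walls. Of 8 tested 6 were lower and none higher, with a median of −2.14. *Solyc05g005680* had 0.200, 0.441 and 1.02 CPM in cotyledons, against 30.6, 38.3 and 65.7 CPM in the hypocotyl (−6.37 ± 0.25, adjusted p = 1.04e-13). *Solyc12g011023* had 0.739, 1.95 and 5.69 CPM in cotyledons, against 18, 28.8 and 35.3 CPM in the hypocotyl (−3.53 ± 0.27, adjusted p = 1.22e-09). The organs were apart in every library for both genes.

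Pectinesterases remove methyl groups from pectin. Of 11 tested 6 were lower and 1 higher, with a median of −1.28, beside 686 and 672 of the 2678 described genes. The most abundant, *Solyc04g082140*, had 88.2, 159 and 254 CPM in cotyledons, against 693, 859 and 999 CPM in the hypocotyl (−2.51 ± 0.13, adjusted p = 6.62e-12). *Solyc08g078640* differed by −3.32 ± 0.30, and the member that was higher, *Solyc12g008530*, differed by 1.22 ± 0.37, with a value of −0.93 at 6 h.

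Expansins loosen walls without cutting them. Of 6 tested 1 was higher and 1 lower, and under library totals none and 2. *Beta expansin precursor 2* (*Solyc03g093390*) had 1 read in all cotyledon libraries and 3896 in the hypocotyl libraries, which after scaling is 2175 times as much in the hypocotyl (95% exact interval of the counts 390.1 to 85917). *Expansin 2* (*Solyc06g049050*) had 34.9, 164 and 455 CPM in cotyledons, against 34.1, 64.7 and 125 CPM in the hypocotyl (1.12 ± 0.22), and overlapped.

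Aquaporins, the water channels, held 1 gene in each direction among 6 tested, a share under the 50.7% of described genes called. *Tonoplast intrinsic protein 2.3* (*Solyc06g060760*) had 27.5, 32.8 and 42.4 CPM in cotyledons, against 2.89, 4.10 and 6.13 CPM in the hypocotyl (3.00 ± 0.13, adjusted p = 6.29e-13). *Plasma membrane intrinsic protein 1.2* (*Solyc01g094690*) had 29.6, 47.0 and 76.1 CPM in cotyledons, against 378, 467 and 507 CPM in the hypocotyl (−3.11 ± 0.14, adjusted p = 1.04e-12). The pair therefore differed in opposite directions by a similar size on the log2 scale.

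Regulators of meristems and of organ identity were in several cases near 0 in 1 of the organs. Of 5 tested genes of the KNOX, BELL, WOX and SCARECROW families 1 was higher and 3 lower, with a median of −2.66. KNOX proteins keep cells of the shoot apex and stem undetermined and are off in most leaf tissue, although tomato expresses them in its compound leaves. *Knotted 1* (*Solyc04g077210*) had 0, 0 and 2.7 CPM in cotyledons, against 75.7, 94.0 and 128 CPM in the hypocotyl. Its log2 fold change was −8.25 ± 0.53 (adjusted p = 1.00e-10), and −11.56 without cotyledon replicate 1 of 3 h, the library with 2.7 CPM. *Knotted 3* (*Solyc05g005090*) had 0, 0.0635 and 0.716 CPM in cotyledons, against 16.3, 19 and 20.9 CPM in the hypocotyl (−6.98 ± 0.33, and −7.95 without the same library). In that library 18 of the 121 genes over 32-fold lower in cotyledons stood at more than 2 times their level in any other cotyledon library, against 0 to 2 such genes in the others. BELL proteins pair with KNOX proteins. *Bell-like homeodomain protein 3* (*Solyc08g081400*) nevertheless had 121, 157 and 214 CPM in cotyledons, against 0.230, 0.521 and 0.972 CPM in the hypocotyl (7.89 ± 0.21, adjusted p = 8.64e-16).

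The vascular cambium marker *WUSCHEL-related homeobox 4* (*Solyc04g078650*) had 3.68, 8.17 and 18.7 CPM in cotyledons, against 46.3, 56.8 and 65.2 CPM in the hypocotyl (−2.66 ± 0.20, adjusted p = 6.86e-10). Of 4 tested genes of phloem and cambium 3 were lower and none higher. The sum of all 5 listed was 54.8, 107 and 155 CPM in cotyledons, against 121, 165 and 188 CPM in the hypocotyl, with the highest cotyledon value in replicate 1 of 6 h.

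Genes of dividing cells were lower in cotyledons nearly throughout, with 13 of 16 lower, 1 higher and a median of −1.77. Of the 7 tested cyclins of types A and B in this group 6 were lower and 1 higher, with a median of −2.49, and 5 of 6 histones were lower, with a median of −1.28. The sum of all 19 listed genes was 109, 123 and 186 CPM in cotyledons, against 313, 337 and 412 CPM in the hypocotyl. A B1-type cyclin-dependent kinase (*Solyc10g074720*), of a plant class that acts at mitosis, had 4.13, 5.40 and 9.54 CPM in cotyledons, against 32, 35.9 and 45.1 CPM in the hypocotyl (−2.65 ± 0.09, adjusted p = 8.79e-15). A B-type cyclin (*Solyc10g078330*) had 0.698, 1.46 and 2.06 CPM in cotyledons, against 7.07, 12.2 and 14.3 CPM in the hypocotyl (−2.90 ± 0.16, adjusted p = 1.40e-11). The cyclin that was higher was annotated as *Cyclin-A1-1* (*Solyc01g044558*), with 6.65, 11.8 and 18.3 CPM in cotyledons, against 1.83, 2.69 and 4.92 CPM in the hypocotyl (1.88 ± 0.11, adjusted p = 2.52e-11).

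Growth regulators of leaves belonged to both sides, with 4 of 10 tested higher and 2 lower, beside 672 and 686 of the 2678 described genes. TCP factors of the CINCINNATA type restrain growth of the blade and promote its differentiation. *SlTCP3* (*Solyc12g014140*) had 13, 41.5 and 175 CPM in cotyledons, against 0.470, 1.04 and 5.44 CPM in the hypocotyl (4.95 ± 0.16, adjusted p = 8.78e-15). *Growth-regulating factor 3* (*Solyc09g009200*), from a family that sustains cell division in organs, had 0.0635, 0.512 and 1.41 CPM in cotyledons, against 2.95, 4.92 and 8.47 CPM in the hypocotyl (−3.21 ± 0.25, adjusted p = 1.17e-09).

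Among the hormones, auxin had the most listed genes. Only 1 of 5 synthesis genes passed the filter. This was a tryptophan aminotransferase (*Solyc03g112460*), of the first step from tryptophan, with 11.4, 45.4 and 113 CPM in cotyledons, against 1.64, 3.90 and 7.84 CPM in the hypocotyl (3.41 ± 0.23, adjusted p = 1.46e-10). Carriers were lower where called, with 2 of 6 lower and none higher, or 5 lower under library totals. The influx carrier *SlLAX2* (*Solyc01g111310*) had 10.1, 15.7 and 24.3 CPM in cotyledons, against 39.6, 46.8 and 58.6 CPM in the hypocotyl (−1.58 ± 0.12, adjusted p = 9.50e-10), and *SlPIN5* (*Solyc01g068410*) differed by −2.15 ± 0.27.

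Aux/IAA proteins repress auxin responses and are themselves induced by auxin. Of 10 tested 3 were higher and 5 lower, beside 672 and 686 of the 2678 described genes. *IAA19* (*Solyc03g120380*) had 4.02, 4.79 and 13.8 CPM in cotyledons, against 0.262, 0.554 and 1.25 CPM in the hypocotyl (3.4 ± 0.22, adjusted p = 1.36e-10). *IAA13* (*Solyc09g090910*) had 3.26, 5.13 and 10.6 CPM in cotyledons, against 27.5, 35.7 and 43.6 CPM in the hypocotyl (−2.68 ± 0.17, adjusted p = 5.20e-11), and *IAA11* (*Solyc12g096980*) differed by −2.99 ± 0.19. GH3 enzymes join auxin and other acids to amino acids and so lower their free pool. Of 5 tested 4 were higher and none lower, but 2 and 1 under library totals. *Solyc08g068490* had 4.27, 15.8 and 27 CPM in cotyledons, against 0.0656, 0.207 and 0.367 CPM in the hypocotyl (6.29 ± 0.32, adjusted p = 3.66e-12). SAUR genes are small early auxin targets. Of 29 listed 7 passed the filter, and of these 4 were higher and 1 lower, with a median of 1.88. *Solyc01g110580* differed by 3.09 ± 0.27 and *Solyc12g009290* by −3.25 ± 0.18.

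Gibberellin 20-oxidases make the precursors of active gibberellins, which promote stem growth, and 2 of them lay on opposite sides. *Gibberellin 20-oxidase-3* (*Solyc11g072310*) had 0, 0 and 0.150 CPM in cotyledons, against 28.4, 61.0 and 89.7 CPM in the hypocotyl (−10.47 ± 0.27, adjusted p = 5.34e-16, and −11.16 without cotyledon replicate 2 of 6 h). *Gibberellin 20-oxidase-1* (*Solyc03g006880*) had 2.10, 5.40 and 13.7 CPM in cotyledons, against 0.522, 0.977 and 1.63 CPM in the hypocotyl (2.62 ± 0.29, adjusted p = 1.69e-07). The other 5 tested genes of gibberellin metabolism and reception were not called.

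LOG enzymes release active cytokinins. Of 5 tested genes of cytokinin metabolism 3 were higher and 1 lower, or 2 and 2 under library totals. *Solyc06g075090* had 13, 44.8 and 69.1 CPM in cotyledons, against 0.329, 1.01 and 1.59 CPM in the hypocotyl (5.34 ± 0.16, adjusted p = 4.38e-15). *Solyc01g005680*, the member lower in cotyledons, lay at the edge of the call, with −1.01 ± 0.11. Genes tied to jasmonate and wounding were split, with 3 higher and 4 lower of 7 tested. Lipoxygenase A (*Solyc08g014000*) had 0.381, 0.978 and 1.71 CPM in cotyledons, against 66.4, 100.1 and 149.98 CPM in the hypocotyl (−6.63 ± 0.24, adjusted p = 3.59e-14). Threonine deaminase (*Solyc09g008670*), induced by wounding in tomato leaves, had 18.3, 57.9 and 397 CPM in cotyledons, against 0.0313, 0.886 and 8.20 CPM in the hypocotyl (6.21 ± 0.85, and 6.88 without hypocotyl replicate 2 of 6 h).

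The epidermis list, with genes of cuticle and stomata, had 5 of 14 tested higher and 4 lower, beside 672 and 686 of the 2678 described genes. Under library totals its counts were 4 and 5. A glycerol-3-phosphate acyltransferase (*Solyc09g014350*) had 14.7, 41.4 and 98.8 CPM in cotyledons, against 1.08, 2.13 and 3.35 CPM in the hypocotyl (4.35 ± 0.17, adjusted p = 8.07e-14). *EPIDERMAL PATTERNING FACTOR-like 6* (*Solyc09g082620*), a peptide of a family that spaces stomata and shapes stems in Arabidopsis, had 0.134, 0.745 and 1.54 CPM in cotyledons, against 3.41, 6.11 and 10.4 CPM in the hypocotyl (−2.92 ± 0.27, adjusted p = 1.15e-08). In flavonoid synthesis 1 of 8 was higher and 1 lower, both annotated as chalcone isomerases, *Solyc05g052240* at 1.44 ± 0.16 and *Solyc02g083890* at −2.76 ± 0.19.

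Of the 8 *SlPIF* genes 7 passed the filter, with 4 higher, 2 lower and 1 not called, or 3 and 2 under library totals. *SlPIF8a* (*Solyc01g090790*) had 261, 330.5 and 410.4 CPM in cotyledons, against 22.0, 37.6 and 71.1 CPM in the hypocotyl (2.99 ± 0.14, adjusted p = 1.13e-12). *SlPIF4* (*Solyc07g043580*) had 137, 197 and 228 CPM in cotyledons, against 43.8, 65.1 and 112 CPM in the hypocotyl (1.42 ± 0.10, adjusted p = 4.34e-10). The organs did not overlap for either gene. *SlPIF7a* (*Solyc03g115540*) had 6.99, 22.8 and 27.6 CPM in cotyledons, against 0.860, 1.82 and 2.88 CPM in the hypocotyl (3.34 ± 0.13, adjusted p = 1.34e-13). *SlPIF7b* (*Solyc06g069600*) had 979 reads over the cotyledon libraries, against 3 over those of the hypocotyl, a ratio of 585 after scaling (95% exact interval of the counts 199 to 2839.9).

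Of the remaining *SlPIF* genes, none of those tested was called higher in cotyledons. *SlPIF3* (*Solyc01g102300*) had 2.79, 4.03 and 5.73 CPM in cotyledons, against 10.4, 11.8 and 14.2 CPM in the hypocotyl (−1.55 ± 0.09, adjusted p = 3.05e-11). *SlPIF1b* (*Solyc06g008030*) had 0.747, 12.1 and 82.6 CPM in cotyledons, against 5.45, 66.9 and 116 CPM in the hypocotyl (−1.60 ± 0.26, adjusted p = 1.62e-05). Both organs had their highest values of it at 6 h and their lowest at 24 h, and the difference was −2.31, −0.42 and −2.61 at 3, 6 and 24 h. *SlPIF1a* (*Solyc09g063010*) had 21.4, 28.6 and 39.5 CPM in cotyledons, against 20.7, 31.1 and 32.8 CPM in the hypocotyl (0.04 ± 0.11, adjusted p = 0.723). *SlPIF8b* (*Solyc10g018510*) was too low to test.

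**Figure D3:**
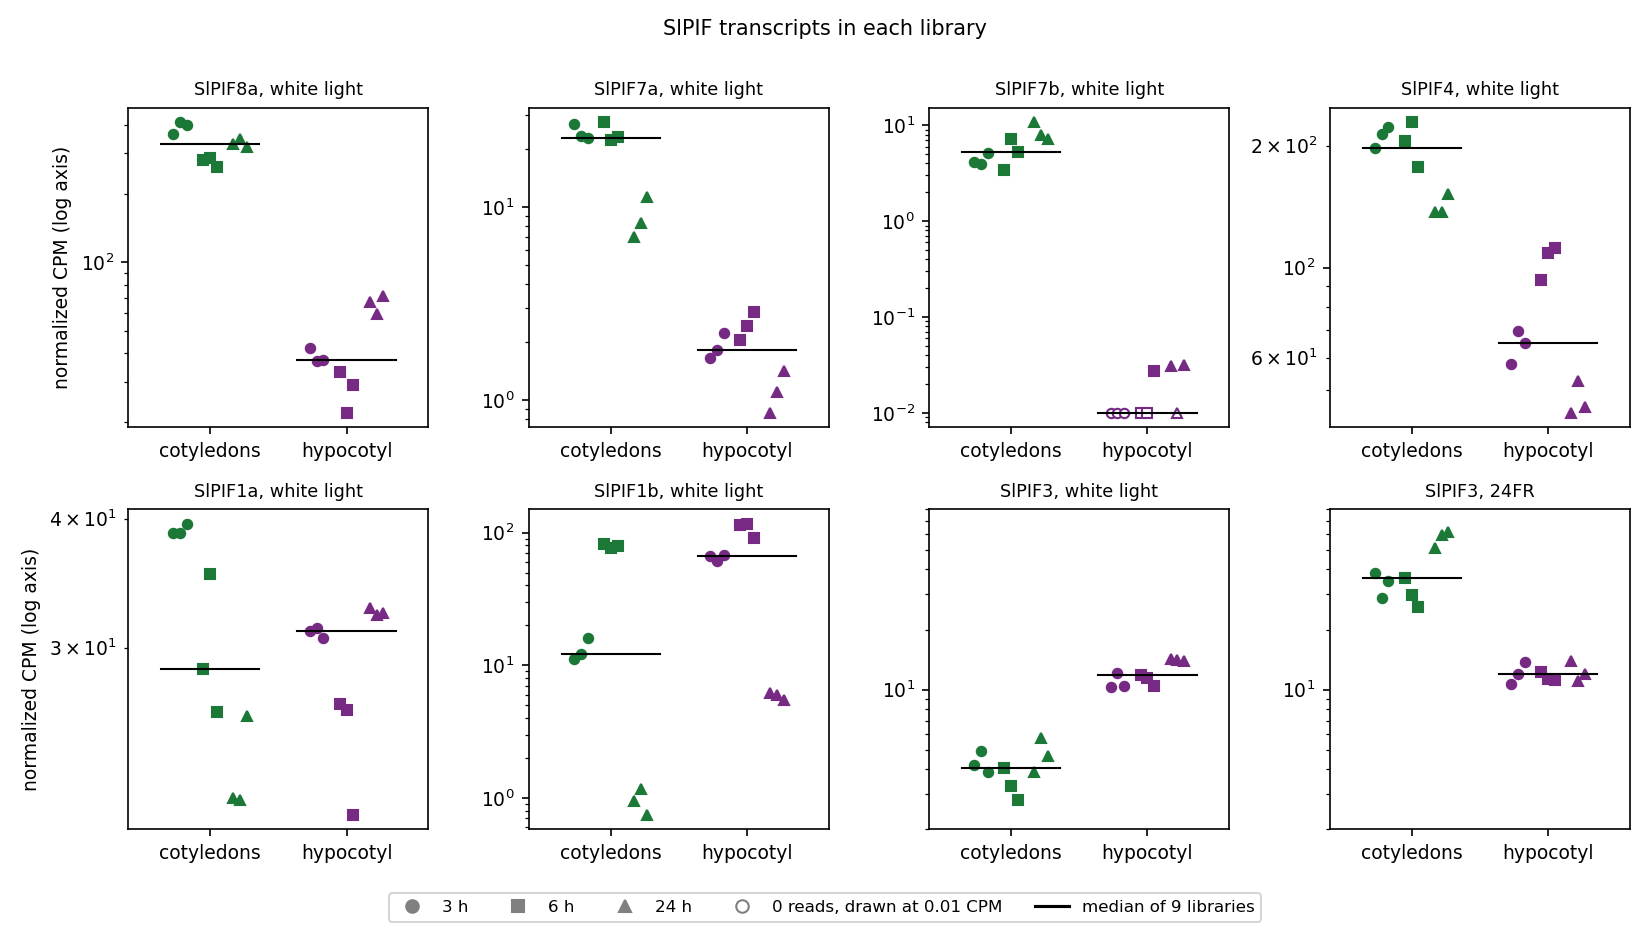
Normalized CPM on log axes of 7 *SlPIF* genes in each library, cotyledons left and hypocotyl right, with symbols for the time, open symbols for 0 reads and a bar at the median of 9 libraries. *SlPIF8a*, *SlPIF7a*, *SlPIF7b* and *SlPIF4* lie higher in cotyledons. The last pair of panels shows *SlPIF3* lower in cotyledons in white light and higher there in 24FR, with the same range on both y axes.

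Of 18 tested photoreceptors and light-signalling genes 8 were higher and 5 lower, beside 672 and 686 of the 2678 described genes. Under library totals the counts were 6 and 5. An NPH3-family gene (*Solyc05g051580*), from a family that acts with phototropins, had 4.05, 40.2 and 154 CPM in cotyledons, against 0.0984, 1.59 and 12.0 CPM in the hypocotyl (4.17 ± 0.17, adjusted p = 1.26e-13). A phytochrome kinase substrate gene (*Solyc03g116160*) was 3.4 ± 0.31 higher and *CONSTANS 1* (*Solyc02g089540*) 2.46 ± 0.18 higher, while the gene of B-box zinc finger protein 22 (*Solyc12g089240*) differed by −1.86 ± 0.24. Of the red-light receptors, phytochrome B2 (*Solyc05g053410*) had 4.74, 5.45 and 7.62 CPM in cotyledons, against 10.5, 13.4 and 14.5 CPM in the hypocotyl (−1.19 ± 0.08, adjusted p = 2.45e-10). Phytochrome B1 (*Solyc01g059870*) had 56.5, 123 and 165 CPM in cotyledons, against 39.1, 73.1 and 125 CPM in the hypocotyl (0.56 ± 0.08), under the fold asked for a call.

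Several of the largest differences fell outside these lists. The rule took the 12 largest described genes per direction without overlap and with a mean of at least 20 CPM in the higher organ. Descriptions of a bare domain or family were passed over. Those higher in cotyledons included an RNA exonuclease 4-like gene (*Solyc02g067730*), with 4039 reads in cotyledons and none in the hypocotyl. This is at least 2412-fold higher with the hypocotyl set at a floor of 3 reads over the group. *RADIALIS* (*Solyc01g109670*), from a family of small MYB-like factors known from flower asymmetry in snapdragon, had 4055 reads against 1, a ratio of 7265 (1303 to 287009). Its relative *RADIALIS-like 6* (*Solyc01g109690*) had 10.6, 60.6 and 90.2 CPM in cotyledons, against 0.0313, 0.207 and 0.503 CPM in the hypocotyl (7.75 ± 0.34, adjusted p = 4.34e-13). A cysteine protease (*Solyc07g041920*) had 4480 reads against 1, a ratio of 8026 (1439.8 to 317083). A germin-like protein (*Solyc07g041720*), of a family of wall-bound proteins, had 241, 442 and 1544 CPM in cotyledons, against 1.19, 1.57 and 3.86 CPM in the hypocotyl (8.23 ± 0.24, adjusted p = 2.32e-15). The last were a purine permease 3-like gene (*Solyc12g057100*, 7.84 ± 0.26), the gene of high mobility group B protein 9 (*Solyc12g094440*, 9.02 ± 0.27, and 9.84 without hypocotyl replicate 3 of 24 h) and that of proteinase inhibitor PPI3A2 (*Solyc09g083435*, 7.56 ± 0.58, and 8.24 without hypocotyl replicate 2 of 6 h).

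Among those lower in cotyledons, a peroxidase (*Solyc02g083480*) had no read in cotyledons and 6503 in the hypocotyl, at least 1209.9-fold lower in cotyledons by the same floor. Another peroxidase, *TPX1* (*Solyc07g052510*), tied to lignin formation in tomato, had 0.377, 0.794 and 3.36 CPM in cotyledons, against 153, 209 and 255 CPM in the hypocotyl (−7.45 ± 0.28, adjusted p = 5.82e-14). An organ-specific protein (*Solyc10g009150*) was also among the most abundant, with 0.389, 1.41 and 3.69 CPM in cotyledons, against 768, 868 and 1076 CPM in the hypocotyl (−9.15 ± 0.26, adjusted p = 1.39e-15). The Sn-1 protein gene (*Solyc04g007760*) had 0, 0 and 0.150 CPM in cotyledons, against 56.4, 76.5 and 133 CPM in the hypocotyl (−10.67 ± 0.27, adjusted p = 4.03e-16). Of 2 cytochrome P450 genes, *Solyc06g035760* differed by −8.29 ± 0.28 and *Solyc04g007940* by −7.94 ± 0.53, or by −12.29 without cotyledon replicate 1 of 3 h. A polyphenol oxidase (*Solyc08g074682*) differed by −8.11 ± 0.28, a citrate-binding protein gene (*Solyc11g005480*) by −7.56 ± 0.26, and a WAT1-related gene (*Solyc04g007590*) by −7.71 ± 0.42, or by −8.77 without cotyledon replicate 2 of 6 h.

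The organ difference was also followed over time. At 3 h 6158 genes (37.6%) were called, 3351 (20.5%) higher and 2807 (17.1%) lower in cotyledons. At 6 h 5609 (34.2%) were called, 3123 (19.1%) higher and 2486 (15.2%) lower. At 24 h 5997 (36.6%) were called, 3176 (19.4%) higher and 2821 (17.2%) lower. Of the genes higher over the 18 libraries, of which the times are parts, 2437 were called so at all 3 times, and of those lower 1867. The size of the difference depended on time in 6465 genes (39.5%), most often between 24 and 6 h (5619 genes, 34.3%), less often between 24 and 3 h (3711, 22.7%) and between 6 and 3 h (2737, 16.7%). The 24 h libraries were taken at the hour of day at which counting began, so hours elapsed and hour of day cannot be told apart. In 29 genes the difference was called in opposite directions at different times.

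*Cab-5* (*Solyc12g006140*), a chlorophyll a/b-binding protein, was the clearest case on the photosynthetic side. At 3, 6 and 24 h its middle value was 2284.7, 2892 and 355 CPM in cotyledons, against 215.5, 137 and 179 CPM in the hypocotyl, so that the log2 difference was 3.35, 4.22 and 0.90. It was the cotyledon level that was lower at 24 h. Pyruvate, phosphate dikinase (*Solyc01g080460*) had middle values of 1765.5, 1461 and 1052 CPM in cotyledons, against 162, 87.7 and 296 CPM in the hypocotyl. Both organs had less of it at 6 h than at 3 h, and at 24 h the level was lower still in cotyledons and higher in the hypocotyl. A nitrate-transporter relative, *NRT1/PTR FAMILY 6.4* (*Solyc12g006050*), had middle values of 275, 24.2 and 851 CPM in cotyledons, against 92.4, 46.9 and 236 CPM in the hypocotyl, and differed by 1.44, −1.06 and 1.93. It was lower in cotyledons at 6 h and higher at the other times. An XRI1-like gene (*Solyc01g005010*) had middle values of 19.98, 6.39 and 65.6 CPM in cotyledons, against 17.3, 17.3 and 24.1 CPM in the hypocotyl, which gave 0.14, −1.53 and 1.49.

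**Figure D4:**
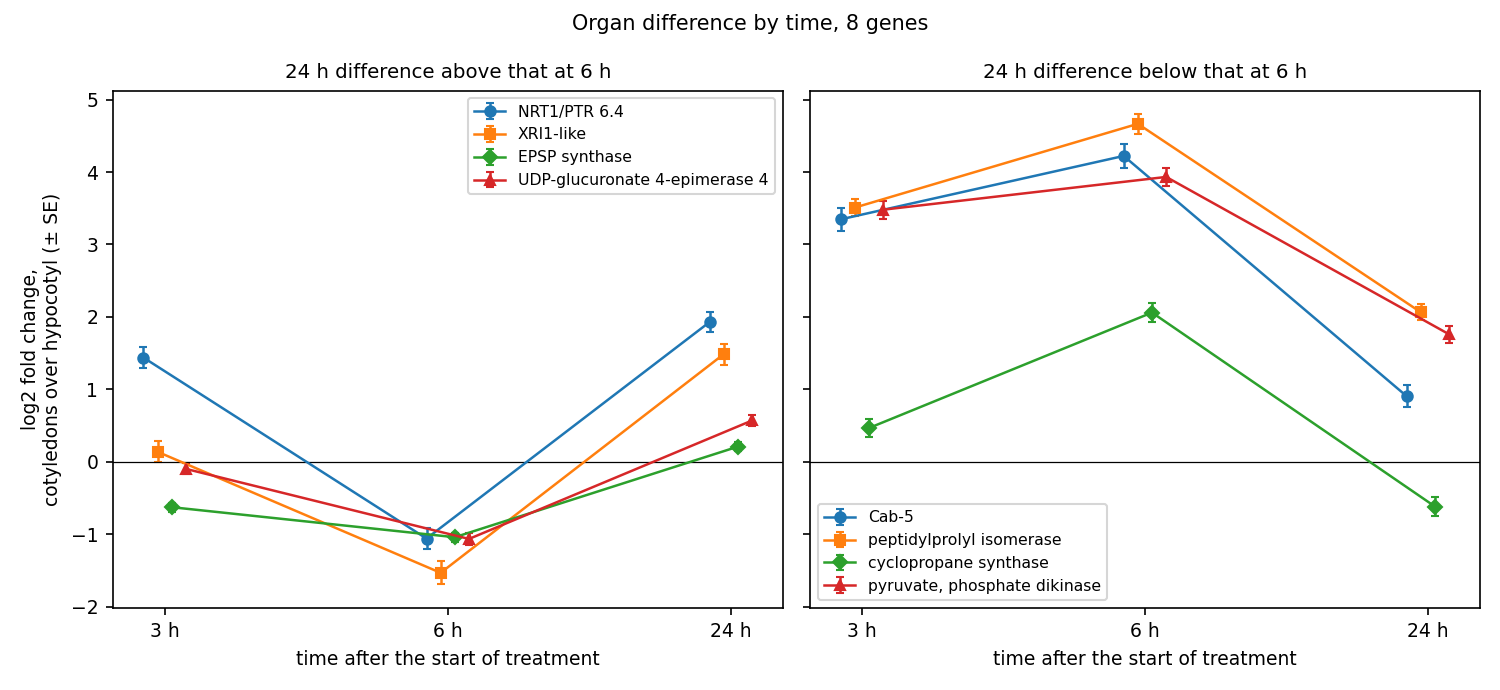
Log2 fold change of cotyledons over hypocotyl (y axis, points with SE) at 3, 6 and 24 h for the 8 described genes of smallest p for dependence on time. The left panel holds the 4 whose signed difference was higher at 24 h than at 6 h. The right panel holds the 4 with the reverse, such as *Cab-5* with 4.22 at 6 h and 0.90 at 24 h.

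In 24FR, measured in 9 further libraries of each organ and scaled separately from those of white light, 5917 of 16403 genes (36.1%) were called, 3214 (19.6%) higher and 2703 (16.5%) lower in cotyledons. Of the genes higher in cotyledons in white light 2916 (91.3%) were called so in 24FR, and of those lower 2257 (88.7%). The organ difference in 24FR minus that in 24WL, from a fit of all 36 libraries, had an adjusted p below 0.05 in 445 of 16787 genes (2.65%) and in 36 of 284 list members. Of the 2678 described genes, from which the lists were drawn and which favour genes responding to far-red light, 188 passed. *SlPIF3* was the single gene called in opposite directions. In 24FR it had 26.0, 36.2 and 61.9 CPM in cotyledons, against 10.7, 12.0 and 13.9 CPM in the hypocotyl, a log2 fold change of 1.71 (adjusted p = 4.25e-10). Its organ difference in 24FR minus that in 24WL was 3.28 (adjusted p = 8.02e-16).

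Of 3 tested brassinosteroid genes 1 was lower in cotyledons and none higher in white light, and 2 had an organ difference that depended on light. Brassinosteroids are growth-promoting steroids, *DWARF* oxidises their precursors and BES1/BZR1 factors carry their signal. A *BES1/BZR1* gene (*Solyc07g062260*) differed by −1.81 ± 0.13 in white light, with 3.02, 6.29 and 8.19 CPM in cotyledons, against 12.9, 17.5 and 33.1 CPM in the hypocotyl. In 24FR it had 28.2, 57.2 and 80.3 CPM in cotyledons, against 25.9, 33.9 and 42.8 CPM in the hypocotyl (0.58). Its organ difference in 24FR minus that in 24WL was 2.41 (adjusted p = 1.58e-11). *DWARF* (*Solyc02g089160*) had 1.10, 2.84 and 5.08 CPM in cotyledons, against 1.97, 3.17 and 5.97 CPM in the hypocotyl in white light (−0.40 ± 0.22, adjusted p = 0.103). In 24FR it had 14.4, 21.9 and 37.2 CPM in cotyledons, against 1.55, 2.90 and 4.09 CPM in the hypocotyl. Here the organ difference in 24FR minus that in 24WL was 3.46 (adjusted p = 5.14e-10). Phytochrome B2 was not called between the organs in 24FR, with 45.3, 61.4 and 97.6 CPM in cotyledons, against 39.4, 78.8 and 86.4 CPM in the hypocotyl. Its log2 fold change was 0.04 there and −1.19 in white light, and the 24FR minus 24WL value was 1.24 (adjusted p = 2.15e-06).

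The first leaf over the epicotyl gave a second pair of blade and stem. Its 9 libraries of each organ were scaled separately from those of the cotyledons and hypocotyl. There 4563 of 16353 genes (27.9%) were called, 2888 (17.7%) higher and 1675 (10.2%) lower in the leaf. The genes higher in cotyledons were also higher in the leaf for 2332 of 3194 (73.0%), which is 80.7% of the leaf list. Those lower in cotyledons were lower in the leaf for 1080 of 2544 (42.5%), which is 64.5% of that list. The difference of the pairs is the log2 fold change of cotyledons over hypocotyl minus that of leaf over epicotyl, from a fit of all 36 libraries. It had an adjusted p below 0.05 in 9703 of 17132 genes (56.6%), and beyond 1 in size it was called in 2401 (14.0%), with 1085 (6.33%) above 0 and 1316 (7.68%) below.

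Photosynthetic genes were alike in direction, with 23 of 23 light-harvesting genes higher in the leaf and a median of 3.69. In the leaf 2 of 16 genes of dividing cells were lower and 1 higher, with a median of −0.78, and none of 18 genes of the secondary wall were lower, with 6 higher. Beside these leaf counts, and those of XTH genes below, 10.2% of all genes were lower and 17.7% higher in the leaf. The count of lower genes of dividing cells is near that share. For the described genes alone the share in this pair was not counted. In 2 other lists the counts were those of the cotyledon pair, with 3 of 4 genes of phloem and cambium lower and none higher, and 3 of 5 KNOX, BELL, WOX and SCARECROW genes lower and 1 higher. For the B-type cyclin *Solyc10g078330* the leaf had 10.2, 12.8 and 14.4 CPM, against 17.5, 20.4 and 24.9 CPM in the epicotyl, and its difference of the pairs was −2.09 (adjusted p = 7.03e-12). *Extensin-3* had a log2 fold change of −1.02 in the leaf over the epicotyl and a difference of the pairs of −3.67 (adjusted p = 1.90e-16).

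Of 6 XTH genes tested in the leaf 2 were higher and 1 lower, against none higher and 6 of 8 lower in cotyledons. *XTH6* (*Solyc11g066270*) had 5.97, 10.5 and 17.5 CPM in cotyledons, against 32.3, 41.2 and 128 CPM in the hypocotyl (−2.33 ± 0.16). It had 4.41, 7.25 and 9.61 CPM in the first leaf, against 1.07, 2.14 and 4.43 CPM in the epicotyl (1.56), and the difference of the pairs was −3.84 (adjusted p = 1.76e-15). The gene was lower in the cotyledon blade and higher in the leaf blade than in the adjoining stem. *Tonoplast intrinsic protein 2.3* had 5.21, 8.16 and 10.8 CPM in the first leaf, against 8.74, 12.2 and 17.1 CPM in the epicotyl (−0.61), a difference of the pairs of 3.69 (adjusted p = 1.48e-17). *GRF1-interacting factor 1* (*Solyc04g009820*), a partner of growth-regulating factors, had a log2 fold change of 2.10 ± 0.14 in cotyledons over hypocotyl and of −0.68 in the leaf over epicotyl (difference of the pairs 2.94, adjusted p = 3.91e-13). *SlPIF8a* was higher in both blades, by 2.99 and by 1.38, with a difference of 1.68 (adjusted p = 2.46e-10), while *SlPIF7a* had 3.34 and 3.43 (difference 0.00, adjusted p = 0.997).

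**Figure D5:**
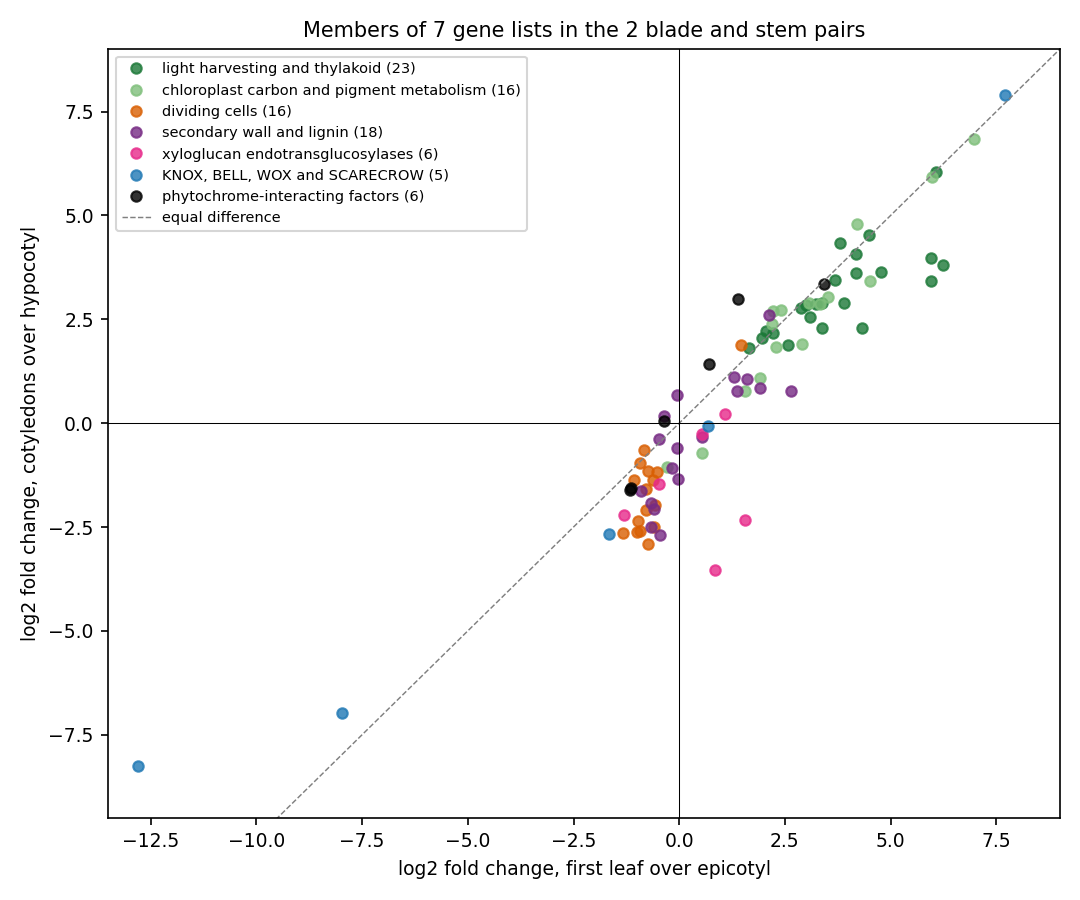
Each point is a member of 7 gene lists tested in both pairs, with the log2 fold change of first leaf over epicotyl on the x axis, that of cotyledons over hypocotyl on the y axis and a dashed line of equal difference. Light-harvesting genes lie at upper right, genes of dividing cells under the line, and 2 XTH genes, with −2.33 and −3.53 in cotyledons over hypocotyl, at lower right.

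At 6 h the pair of organs was also measured in the mutants, with 3 libraries per organ and genotype, the WT libraries being the 6 h libraries described above. The targeted transcript does not check these edits, since *SlPIF8a* RNA was still present, with 230.8, 195 and 181 CPM in cotyledons of *slpif8a* and 293, 298 and 275 CPM in those of WT. Of 16333 genes 5536 (33.9%) were called between the organs of *slpif8a*, 5585 (34.2%) in *slpifq* and 5606 (34.3%) in WT. The organ difference depended on genotype in 2 genes (0.0122%) by edgeR, with 833 (5.10%) at an unadjusted p under 0.05, and in 36 genes by DESeq2. For *slpif8a* alone edgeR gave no gene (0%, with 764 or 4.68% at an unadjusted p under 0.05) and DESeq2 15. For *slpifq* alone edgeR gave 1 gene (0.00612%, with 792 or 4.85% unadjusted) and DESeq2 8. The unadjusted shares are about what a cut at 0.05 passes where nothing differs. One gene of the 2 was *Solyc02g092530*, whose organ difference changed by −0.40 in *slpif8a* and 0.27 in *slpifq* relative to WT, with an adjusted p over both mutants of 0.0232. The other, *Solyc06g071800*, had 0.573, 1.02 and 0.664 CPM in *slpifq* cotyledons and 1.95, 2.40 and 1.94 CPM in *slpifq* hypocotyl, whereas WT had 21.8, 21.4 and 25.7 CPM and 20.9, 19.7 and 21.5 CPM in these organs. The low level was in both organs of *slpifq*, and the organ difference was −1.60 from that of WT (adjusted p = 0.0347).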

How the data were processed

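RNA-seq libraries were sequenced by the authors as stranded single-end reads, aligned with STAR 2.7.9a and counted per gene with HTSeq 0.13.5, and the gene counts were deposited without normalization. The deposited normalized time-course table, a signal in which each column's counts are divided by 1 constant, was used only in an alternative. Reads assigned to no gene, 13.5 to 16.5% of the total in cotyledons and 9.15 to 9.89% in the hypocotyl, were left out. Counts were fitted with edgeR 4.0.16 (R 4.3.3) by TMM scaling, organ and time as terms, the quasi-likelihood test and Benjamini-Hochberg adjustment over all tested genes, after keeping genes above 5 CPM in at least 3 libraries. Time, light, organ pair and genotype were tested as interactions in wider fits of the same kind, and DESeq2 1.42.0 and limma 3.58.1 (pseudocounts 1 and 0.1) served as alternatives. The test was tried on simulated counts first.

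The gene lists and members were chosen with earlier results of these data known. Named were the list members of largest fold and the one called in the other direction, the 8 *SlPIF* genes, and, among called and described genes, the 12 per direction of largest fold without overlap and with a mean of at least 20 CPM, the 5 per direction of highest level and the 4 per direction of smallest p for dependence on time; a few further members were added after their values were seen. Gene identifiers could not be matched to the reference table used here, so no positions or sequences are given. Nothing states that replicates came from separate sowings, and p-values measure the spread between these pooled samples. Intervals and floors of 3 reads cover counting error only.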

Additional observations from a re-analysis of the deposited data

Results flagged for a closer look

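Differences between groups within the same contrast were marked for a closer look. The organ difference depended on time in 6465 genes, on light in 445 genes and on genotype in 2 genes, and it was not the same in the cotyledon and hypocotyl pair as in the first leaf and epicotyl pair for 9703 genes, all by interaction tests in edgeR with an adjusted p below 0.05.

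For 8 genes named by the test over time, the organ difference at 24 h minus that at 6 h was as follows on the log2 scale. The XRI1-like gene *Solyc01g005010* had 3.02 and *NRT1/PTR FAMILY 6.4* (*Solyc12g006050*) 2.99. The gene of EPSP synthase (*Solyc01g091190*), of the shikimate pathway, had 1.25, with middle values of 72.7, 52.9 and 103 CPM at 3, 6 and 24 h in cotyledons, against 111, 110.4 and 91.5 CPM in the hypocotyl, so that the lower level of cotyledons was seen at 3 and 6 h. The gene of UDP-glucuronate 4-epimerase 4 (*Solyc01g091200*), an enzyme of pectin precursors, had 1.64, with 39.5, 16.8 and 80.6 CPM in cotyledons, against 40.6, 34.6 and 50.7 CPM in the hypocotyl.

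The remaining 4 had a lower signed difference at 24 h than at 6 h. The value was −3.32 for *Cab-5* (*Solyc12g006140*) and −2.17 for pyruvate, phosphate dikinase (*Solyc01g080460*). A cyclopropane-fatty-acyl-phospholipid synthase gene (*Solyc09g090510*) had −2.68, with 93.5, 157 and 82.9 CPM in cotyledons, against 67.4, 36.4 and 122 CPM in the hypocotyl, which put cotyledons higher at 3 and 6 h and lower at 24 h. A peptidylprolyl isomerase gene (*Solyc10g078250*) had −2.60, with 96.5, 46.1 and 109 CPM in cotyledons, against 7.98, 1.94 and 23.9 CPM in the hypocotyl, and was higher in cotyledons at each time. Between the organ pairs, *XTH6* (*Solyc11g066270*) was marked with a difference of the pairs of −3.84.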

How the results depend on the processing

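No gene called between the organs was called in the opposite direction under any alternative run, although estimates below the call did change sign, and 3173 of the 3194 genes higher and 2532 of the 2544 lower kept 1 direction at every time. Of the 5738 calls 5622 were shared with DESeq2's size factors, 5610 with its Wald test and 5726 with the replicate block. The count of calls was 5660 to 5837 with 1 library left out, 3097 to 3206 higher and 2505 to 2740 lower, and 5665 to 7191 genes depended on time. Same-numbered cotyledon and hypocotyl libraries deviated together with correlations of −0.0954 to 0.571, above 0.1 in 7 of 9 pairs, and not every library correlated best with its own number. The numbers were therefore not treated as a pairing, and whether they mark shared seedlings is not known. A replicate block gave 5766 calls and 5705 genes that depended on time, against 6465 without it. Counts that moved by over 1.5 times, or whose split moved, were those with library totals only (1962 higher, 5938 lower), no filter on low counts (9311, with 5111 higher and 4200 lower), no minimum fold (13548, with 6563 and 6985) and a log2 fold change above 2 (2540, with 1521 and 1019), each by its construction.

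Genes of small difference over the 18 libraries changed direction. With library totals only these were *Solyc01g005010* (−0.59), *Solyc09g090510* (−0.059) and *SlPIF1a* (*Solyc09g063010*, −0.63), and without a time term *Solyc01g091200* (0.042). In 6 h libraries alone *Solyc01g005010* had −1.52 and *Solyc12g006050* −1.05, and in 24 h libraries alone *Solyc01g091190* had 0.23, *Solyc01g091200* 0.59, *Solyc09g090510* −0.60 and *SlPIF1a* −0.48. With 1 library left out *Solyc01g005010* had −0.074 to 0.28 and *SlPIF1a* −0.011 to 0.10. All of these genes but *SlPIF1a* were named by the test over time, in which their organ difference depended on time. What reversed *SlPIF1a*, and the other genes outside the fits of a single time, was not tested. *Solyc01g005680*, at −1.01, lost its call in 8 of the 18 fits with 1 library left out. Other named calls also depended on the processing. With library totals only *SlPIF4* (*Solyc07g043580*) had 0.75, the ribosomal protein gene *Solyc01g102310* 0.82 and the expansin gene *Solyc06g049050* 0.45, all under the fold asked for a call. *SlPIF1b* (*Solyc06g008030*) was as weak as −0.42 among the alternatives. Of the comparisons of a named gene with an alternative, 3462 were the same, 36 weaker, 10 stronger and 17 reversed in direction. At this depth, absence of reads over an organ's 9 libraries allows up to 0.0188 CPM in cotyledons and 0.0105 CPM in the hypocotyl.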

Other observations

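Gene families outside the lists were grouped by words in their descriptions after the values had been seen, and are given as counts without a test. The background for these counts is all 2678 described genes, of which 672 were higher and 686 lower in cotyledons (50.7% called). Kinesins, motor proteins that move along microtubules and many of which act in dividing cells, were lower in cotyledons for 16 of 22 tested and higher for 1, with a median of −2.03. *Solyc03g025470* had 1.14, 1.81 and 3.56 CPM in cotyledons, against 10.4, 14.8 and 18 CPM in the hypocotyl (−2.81 ± 0.17), and the member that was higher, *Solyc02g062330*, differed by 1.34 ± 0.23. Of 13 genes with peroxidase in their description 8 were lower and 2 higher, with a median of −2.33, and both higher ones are described as vanadium-dependent haloperoxidases or acid phosphatases. *Solyc01g006290* had 7.28, 11.1 and 17.4 CPM in cotyledons, against 347, 508 and 572 CPM in the hypocotyl (−5.38 ± 0.16). Of 29 hydrolases of wall polysaccharides, XTHs included, 18 were lower and 3 higher, with a median of −1.62. The beta-glucosidase gene *Solyc03g031730* had 1.16, 2.95 and 3.96 CPM in cotyledons, against 142, 179 and 268 CPM in the hypocotyl (−6.18 ± 0.15).

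Pentatricopeptide repeat proteins, which process RNA in plastids and mitochondria, were higher for 9 of 24 and lower for none, with a median of 0.27. *Solyc02g068760* had 1.39, 30.4 and 54.5 CPM in cotyledons, against 0, 0.0723 and 1.51 CPM in the hypocotyl (6.21 ± 0.33). Proteinase inhibitors, defence proteins of leaves, were higher for 9 of 16 and lower for 4. Their members lay far apart. *Solyc03g098780* had 17.5, 40.8 and 94.9 CPM in cotyledons, against 1.23, 2.46 and 3.57 CPM in the hypocotyl (4.32 ± 0.24), while *Solyc03g020030* had 0.336, 1.02 and 9.47 CPM in cotyledons, against 154, 187 and 229 CPM in the hypocotyl (−6.77 ± 0.45). MYB factors were evenly divided, with 6 higher, 6 lower and 6 not called of 18. Cytochrome P450 enzymes had 13 higher and 7 lower of 27, and WRKY factors 3 higher and 1 lower of 9.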
